A study of Homo sapiens with 4 samples.

Results

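The genes described here encode the nuclear subunits of the oxidative phosphorylation machinery, and they were measured in H929 cells, an established multiple myeloma line, after knockdown of ILF2. Members were protein-coding genes whose symbol begins with NDUFA, NDUFB, NDUFC, NDUFS, NDUFV, UQCR, ATP5 or COX followed by 4 to 8, together with SDHA, SDHB, SDHC and SDHD. Assembly factors named NDUFAF, pseudogenes and antisense RNAs were left out. The rule gave 90 of the 63677 genes in the files, and all 90 were matched by Ensembl gene ID. Of these, 38 were placed in complex I, 4 in complex II, 9 in complex III, 19 in complex IV and 20 in complex V. A filter on low counts kept 82 members among 19142 tested genes.

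The comparison was between cells transduced with a non-silencing short hairpin RNA (shRNA) and cells transduced with ILF2 shRNA, with 2 libraries in each. Both groups therefore carry a hairpin, and the labels give no time after transduction, no dose and no hairpin sequence. The labels do not say if 1 hairpin or several were used against ILF2, so within that group replicate and hairpin cannot be told apart. The submitters' design text calls the replicates independent without saying at which step they were separated. The p-values therefore measure the spread between these libraries, estimated in part from all tested genes together. Total RNA was sequenced after removal of ribosomal RNA, in stranded libraries, and between 63459322 and 72977082 fragments per library were assigned to genes. ILF2, which encodes the nuclear double-stranded RNA binding protein NF45, was counted with 53115 and 52851 fragments in the controls against 6821 and 7911 after its knockdown (log2 fold change -2.71, SE 0.07; adjusted p = 9.2e-39 in edgeR). All 9 plasma cell markers were detected, with summed levels of 12612 and 12920 CPM (fragment counts scaled to a common library size) in the controls and 14814 and 14935 CPM after knockdown. Of the 9, 4 were higher and 2 lower at an adjusted p under 0.05 in edgeR, beside 20.3% of all tested genes called in either direction. T cell and natural killer cell markers summed to 8.98 and 8.23 CPM in the controls, and to 17.1 and 18.1 CPM after knockdown. CD3E, a T cell receptor complex gene, supplied most of that sum at 8.22, 7.49, 16.1 and 17.0 CPM, while CD3D, CD3G, CD2 and CD8A each stayed at or under 0.0785 CPM. Summed monocyte, stromal and erythroid markers lay between 0.0945 and 0.777 CPM, with FCN1, COL1A2 and LUM at 0. The epithelial list reached 24.3 to 30.4 CPM, nearly all from KRT18, with EPCAM at 0. Any part of these lists in the results was not tested.

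Oxidative phosphorylation takes place in the inner mitochondrial membrane. Complex I (NADH dehydrogenase) and complex II (succinate dehydrogenase) pass electrons to ubiquinone, complex III (the cytochrome bc1 complex) passes them to cytochrome c, and complex IV (cytochrome c oxidase) reduces oxygen. The proton gradient built by complexes I, III and IV drives ATP synthesis by complex V. Complex II also oxidises succinate in the citric acid cycle and is the only one of the 5 with no subunit encoded in mitochondrial DNA. Nuclear transcription factors such as NRF1, the ETS factor GABP and YY1 are known to bind promoters of many of these genes.

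Promoter sequences are shown for SDHA and COX7C, both on chromosome 5 and both higher in the ILF2 shRNA libraries, and for UQCR11, which was also higher but lies on chromosome 19. They are the 200 bases before the annotated gene start in RefSeq, build GRCh38.p14: SDHA at chr5:218120-218319 on the plus strand, UQCR11 at chr19:1605463-1605662 on the minus strand and COX7C at chr5:86617741-86617940 on the plus strand. Capitals mark matches, on either strand, to the NRF1 motif (the longer runs) or to the ETS motif CCGGAAG (the shorter runs).
SDHA: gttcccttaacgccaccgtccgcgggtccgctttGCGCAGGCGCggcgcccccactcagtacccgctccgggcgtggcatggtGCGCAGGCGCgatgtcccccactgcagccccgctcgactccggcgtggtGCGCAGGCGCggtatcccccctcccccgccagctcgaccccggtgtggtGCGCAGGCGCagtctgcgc
UQCR11: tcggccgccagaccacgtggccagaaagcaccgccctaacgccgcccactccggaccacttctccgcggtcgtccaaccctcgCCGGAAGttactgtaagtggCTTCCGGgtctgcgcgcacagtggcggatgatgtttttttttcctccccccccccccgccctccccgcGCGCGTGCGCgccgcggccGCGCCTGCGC
COX7C: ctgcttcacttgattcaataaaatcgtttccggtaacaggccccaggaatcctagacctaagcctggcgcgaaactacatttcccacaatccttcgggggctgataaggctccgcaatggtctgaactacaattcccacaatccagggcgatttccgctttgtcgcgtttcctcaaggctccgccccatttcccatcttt
In SDHA, 4 copies of the NRF1 letters began at positions -166, -117, -68 and -19 from the gene start, each 49 bases after the one before. UQCR11 held 2 NRF1 matches, at -29 and -10, and 2 ETS matches, at -117 and -97, whereas the COX7C window held neither. The RefSeq promoter table matched 71 of the 90 members. Over its full window of 300 bases (250 before the start and 50 after), the NRF1 letters were present in 17 of the 71 members (23.9%), against 6.28% of all 27305 promoters. For the ETS letters the count was 20 of 71 (28.2%), against 10.7%. YY1 letters (ATGGCGG) were found in 19 of 71 (26.8%), against 5.72%. Median GC content of the windows was 61.0% in members and 58.3% in all promoters. Differences in fold change between members with and without a motif were not tested. The median log2 fold change was 0.07 with an NRF1 match (16 tested members) and 0.05 without (50 tested members). With and without an ETS match it was 0.06 and 0.04, and with and without a YY1 match -0.01 and 0.07. Of the 7 members called higher that had a window, 3 held NRF1 letters, 2 ETS letters and 1 YY1 letters. Letters in a window are a description of the sequence and not evidence of binding.

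Most nuclear subunit genes differed little between the groups. At an adjusted p under 0.05 (edgeR quasi-likelihood test, two-sided, adjusted over all tested genes), 8 of the 82 tested members were higher and 1 was lower in the ILF2 shRNA libraries. That is 10.98% of members in this fit, beside 20.3% of all tested genes (10.2% higher and 10.1% lower) and 24.8% of tested protein-coding genes. Among the genes that rose were NDUFS4 and NDUFA8 of complex I, SDHA of complex II, UQCRQ and UQCR11 of complex III, COX7C of complex IV and ATP5F1E of complex V. NDUFA4L2 fell. The rises were small, with log2 fold changes from 0.19 to 0.31. In bulk RNA a lower level can come from fewer cells of a type or from less RNA per cell, and these cannot be told apart.

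The direction of the estimates leaned upward. Among the 82 tested members 58 had a positive log2 fold change and 24 a negative one, and the median was 0.06, compared with -0.0015 over all tested genes. With base composition and gene length corrected for, the median of the members was 0.03. Before adjustment, 22 members were higher and 2 lower at p under 0.05, beside 15.5% and 15.4% of all tested genes. Groups did not overlap for 47 members, 38 higher and 9 lower, beside 56.5% of all tested genes (28.5% higher and 28.0% lower). The median over members was 0.08, 0.06, 0.05 and 0.05 in the 4 pairings of an ILF2 shRNA library with a non-silencing library. For 80 of the 82, the 95% confidence interval of the log2 fold change lay within 0.5 of 0 on either side. The exceptions were the low-level genes NDUFA4L2 and ATP5MGL. Sizes under 0.2 were estimated for 75 members. The corresponding counts were 10699 and 10744 of all 19142 tested genes, and 9239 and 8101 of 13154 protein-coding genes. Members had a median non-silencing level of 70.0 CPM, against 8.02 CPM for all tested genes and 22.2 CPM for protein-coding genes.

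Summed over all 90 members, the controls reached 9252 and 9357 CPM, and the knockdown libraries 9793 and 9890 CPM. Members took 0.939% and 0.945% of fragments in the former and 0.984% and 0.959% in the latter. Both ILF2 shRNA libraries lay above both non-silencing libraries. By complex, the separation was widest in relative terms for complex II, at 553, 548, 632 and 656 CPM in the order non-silencing replicates 1 and 2, ILF2 shRNA replicates 1 and 2. That order is used for all sets of 4 values. SDHA, on chromosome 5, made up the largest part of the complex II sums, with group means of 293 and 363 CPM. Complex I summed to 2459, 2426, 2531 and 2543 CPM, and complex III to 1058, 1093, 1148 and 1144 CPM. Complex IV gave 1464, 1500.5, 1599 and 1577 CPM, and complex V 3718, 3790, 3884 and 3970 CPM. No CPM sum overlapped between the groups. As a share of all fragments, complex I did overlap, at 0.2497%, 0.245%, 0.254% and 0.247%, while the other 4 complexes did not. These sums were not tested.

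The number of calls depended on single libraries. With non-silencing replicate 1 left out, 2 members were higher, SDHA among them, and 0 lower, beside 10.8% of all tested genes called in either direction. Leaving out replicate 2 of that group gave 1 higher (COX7C) and 1 lower, beside 10.5%. The counts were 11 higher and 1 lower when ILF2 shRNA replicate 1 was dropped, beside 18.6%, and 9 higher and 1 lower when its replicate 2 was dropped, beside 15.3%. When base composition and gene length were corrected for, 22 of the 82 members were higher and 5 lower, beside 14.9% and 15.3% of all tested genes. The share of members called was then not below the 30.1% of all tested genes called.

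**Figure D1:**
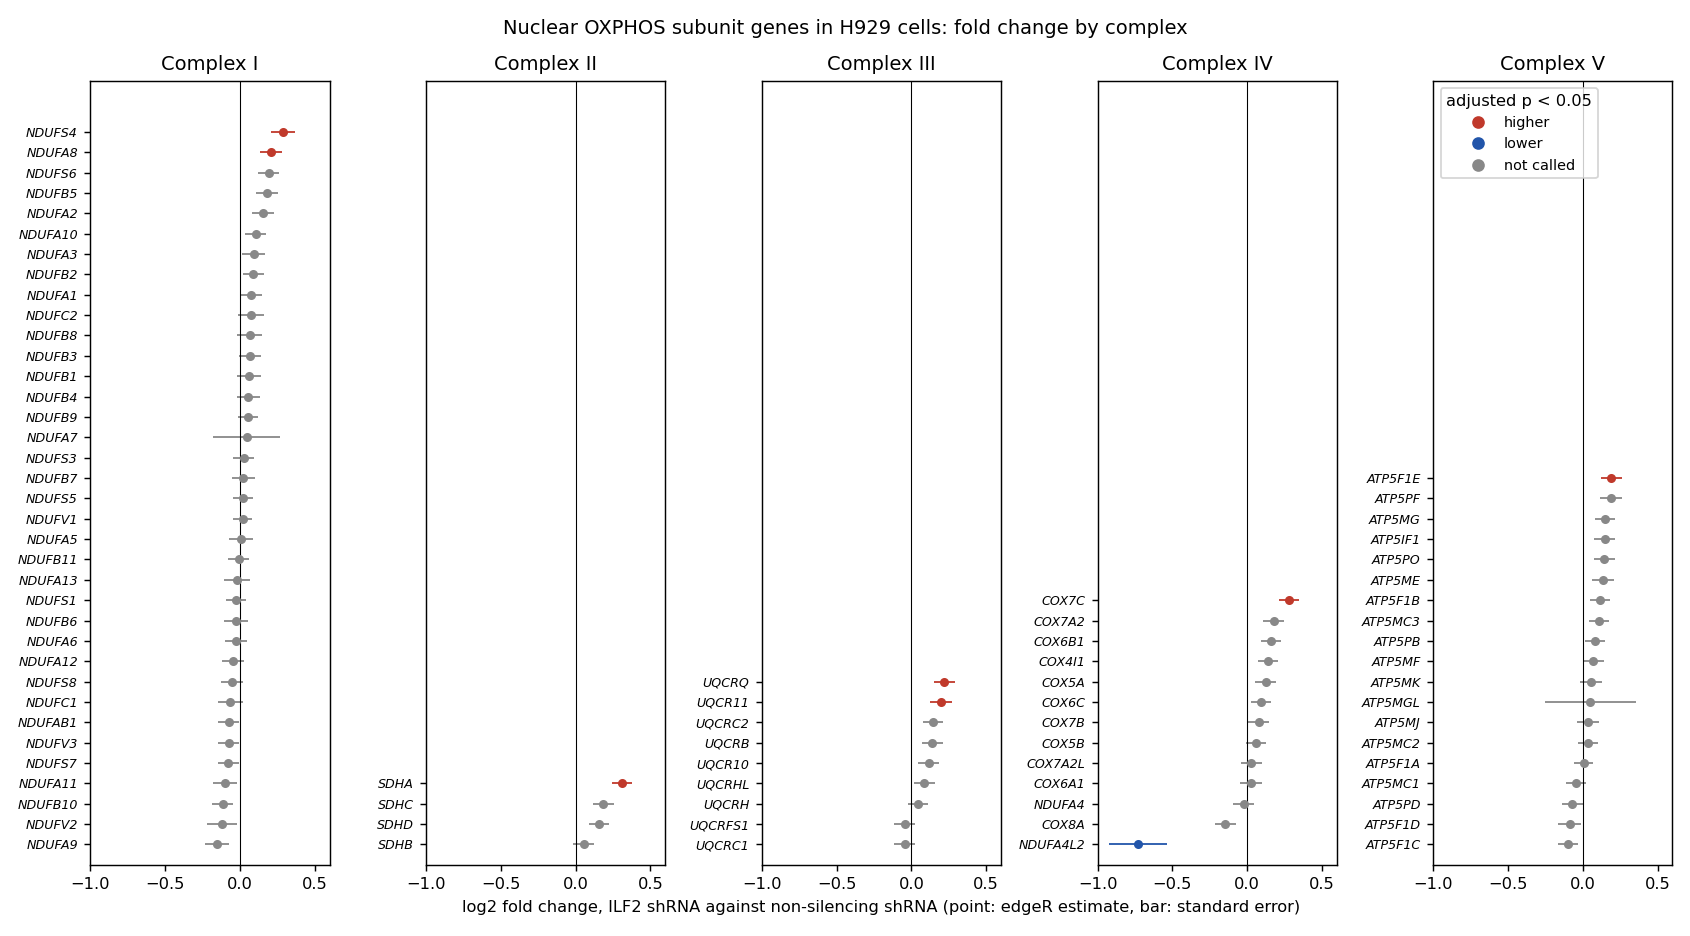
Log2 fold change of the tested members reported here (x axis, ILF2 shRNA against non-silencing shRNA; points are edgeR estimates and bars 1 standard error), sorted within complexes I to V. The members called higher lie between 0.19 and 0.31, NDUFA4L2 lies at -0.73, and those not called are grey.

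Complex I takes electrons from NADH through a flavin and a chain of iron-sulfur clusters held by its core subunits, and its many accessory subunits surround that core. Of 37 tested complex I members, 3 rose and 0 fell, beside 20.3% of all tested genes called in either direction. The median log2 fold change was 0.02. That median rests on single libraries: it was -0.0020 without ILF2 shRNA replicate 1 and 0.06 without its replicate 2. Without non-silencing replicate 1 or 2, 1 and 0 members of the complex were called.

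Values are given next for 4 electron-transfer subunit genes that were not called. They were chosen after their values were seen and do not stand for the core as a whole. NDUFV1, which encodes the flavin-binding subunit that accepts electrons from NADH, had 284, 273, 274 and 290.1 CPM, and its groups overlapped. NDUFS1, an iron-sulfur subunit, had 216, 226, 217 and 217 CPM. The iron-sulfur subunit genes NDUFS7 and NDUFS8 had log2 fold changes of -0.08 and -0.05 (adjusted p = 0.513 and 0.687 in edgeR).

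NDUFS4 and NDUFA8, both for accessory subunits, rose with the groups separate. NDUFS4 (chr5:52856463-52979168, GRCh37), whose mutation is a known cause of Leigh syndrome, had 22.0, 22.2, 27.8 and 26.1 CPM. Its log2 fold change was 0.29 (SE 0.08; adjusted p = 0.00662 in edgeR). NDUFA8 (chr9:124894745-124922098) had 40.3, 39.8, 45.0 and 47.6 CPM, a log2 fold change of 0.21 (SE 0.07; adjusted p = 0.0357 in edgeR). A replicate block in the fit gave edgeR adjusted p of 0.0594 for NDUFS4 and 0.194 for NDUFA8, so neither was called there. Without either non-silencing library the adjusted p for NDUFS4 was 0.0999 and 0.0757, and that for NDUFA8 was 0.216 and 0.278. The NDUFA8 call was also lost without ILF2 shRNA replicate 2 (adjusted p = 0.178) and with no filter on low counts (0.0578).

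Several accessory genes lay just outside the threshold. NDUFS6 had 56.7, 54.0, 66.3 and 60.2 CPM (log2 fold change 0.19; adjusted p = 0.0521 in edgeR), and NDUFB5 had 42.5, 42.1, 49.1 and 46.9 CPM (0.18; adjusted p = 0.0723 in edgeR). Neither gene's groups overlapped. At the other end, NDUFA9 had 24.7, 27.5, 24.5 and 22.5 CPM (log2 fold change -0.15; adjusted p = 0.2002 in edgeR) and NDUFB10 93.3, 86.8, 82.2 and 84.0 CPM (-0.12; adjusted p = 0.261 in edgeR). Both were lower in each ILF2 shRNA library, and both were called lower only after the adjustment for base composition and gene length, alone or with the replicate term.

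Complex II has 4 nuclear subunits, all tested, and 1 rose, beside 20.3% of all tested genes called in either direction. SDHA encodes the flavoprotein that oxidises succinate (chr5:218356-256815). It had 299.7, 286, 353 and 373 CPM, with the groups well apart, and a log2 fold change of 0.31 (SE 0.07; adjusted p = 0.000287 in edgeR), the largest rise among members. Without non-silencing replicate 2 the adjusted p was 0.0772. The membrane anchor genes SDHC and SDHD had 52.3, 52.6, 58.1 and 61.3 CPM and 104, 108, 119 and 116 CPM. Their log2 fold changes were 0.19 and 0.15 (adjusted p = 0.0575 and 0.104 in edgeR), with no overlap between groups. SDHB, the iron-sulfur subunit, had 97.7, 101, 102 and 105 CPM, a difference of 0.05 (adjusted p = 0.650 in edgeR). The 4 genes thus ranged from 0.05 to 0.31 around a median of 0.17, all of them positive.

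Complex III hands electrons from ubiquinol to cytochrome c, and 2 of its 9 tested members rose, beside 20.3% of all tested genes called. Both are genes for small accessory subunits. UQCRQ (chr5:132202252-132203723) had 91.0, 98.9, 113 and 109 CPM, a log2 fold change of 0.22 (SE 0.07; adjusted p = 0.0166 in edgeR). UQCR11 (chr19:1597171-1605480) had 54.7, 55.01, 61.6 and 64.3 CPM, a log2 fold change of 0.20 (SE 0.07; adjusted p = 0.0390 in edgeR). In both genes the ILF2 shRNA libraries exceeded the non-silencing libraries. Neither was called with a replicate block in the fit (edgeR adjusted p of 0.132 for UQCRQ and 0.215 for UQCR11). Leaving out non-silencing replicate 1 or 2 gave adjusted p of 0.396 and 0.0675 for UQCRQ and of 0.280 and 0.261 for UQCR11. UQCR11 was also lost without ILF2 shRNA replicate 2 (0.161) and with no filter on low counts (0.0669). It shares 10.97% of its exon bases with another gene on the same strand.

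The larger complex III subunits did not pass the test. The core protein genes UQCRC1 and UQCRC2 had 172, 170.4, 156 and 176 CPM and 219.6, 224, 246 and 245 CPM. Groups overlapped for UQCRC1 and not for UQCRC2 (log2 fold changes -0.04 and 0.14; adjusted p = 0.719 and 0.117 in edgeR). UQCRFS1, which encodes the Rieske iron-sulfur protein, had 86.4, 94.4, 86.0 and 89.3 CPM, with overlap. The median log2 fold change of complex III was 0.12, and it was 0.08 without ILF2 shRNA replicate 1. Without either non-silencing library 0 of the 9 were called.

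Complex IV genes include several for which vertebrates have tissue-specific isoforms, and 13 of its 19 members were tested. COX7C rose and NDUFA4L2 fell, beside 20.3% of all tested genes called in either direction. COX7C (chr5:85913721-85916779), a small structural subunit gene, had 155, 164, 201 and 186 CPM. Groups did not overlap, and the log2 fold change was 0.28 (SE 0.07; adjusted p = 0.00135 in edgeR; 0.136 without non-silencing replicate 1). NDUFA4L2 (chr12:57628686-57634498) is a hypoxia-inducible paralog of NDUFA4, a subunit once assigned to complex I and now to complex IV. It had only 143, 102, 68 and 66 fragments, or 1.93, 1.42, 1.07 and 0.953 CPM. Both ILF2 shRNA libraries lay below both controls, although the controls themselves differed more than the knockdown libraries did. Its log2 fold change was -0.73 (SE 0.20; adjusted p = 0.00440 in edgeR). The call was lost without non-silencing replicate 1 (log2 fold change -0.49; adjusted p = 0.231) and in DESeq2 (adjusted p = 0.0998).

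The ubiquitous isoforms of complex IV carried nearly all of the signal. COX4I1 had 224, 224, 238 and 254 CPM and COX4I2 had no fragment in any library. COX6A1 had 44.5, 50.02, 48.8 and 47.5 CPM, against none for COX6A2, the heart and muscle isoform. Likewise COX7A2 had 95.6, 97.9, 108 and 111 CPM and its relative COX7A2L 83.8, 83.9, 85.8 and 85.2 CPM, while COX7A1, the other muscle isoform, had none. The same division held for COX6B1 (113, 108, 119.8 and 128 CPM) against COX6B2 (1, 0, 2 and 2 fragments). COX7B (107, 111, 113 and 118 CPM) stood against COX7B2 with 2, 0, 0 and 2 fragments, and COX8A (143, 145, 131 and 129.6 CPM) against COX8C with 1 fragment in non-silencing replicate 2. A count of 0 allows a level of up to 3 fragments, which is 0.041 to 0.047 CPM in these libraries, counting error only. None of these expressed isoforms passed the test. COX7A2 came closest (log2 fold change 0.18; adjusted p = 0.0571 in edgeR). COX8A was lower in both ILF2 shRNA libraries (-0.14; adjusted p = 0.129 in edgeR), and 34.5% of its exon bases are shared with another gene. NDUFA4 had 56.2, 57.4, 54.4 and 57.4 CPM, with overlapping groups, and so did not follow its paralog NDUFA4L2.

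Complex V, the ATP synthase, joins a catalytic F1 head to a membrane rotor. Of its 19 tested members 1 rose, beside 20.3% of all tested genes called. ATP5F1E, the smallest F1 subunit gene (chr20:57600522-57607437), had 145, 151, 174 and 164 CPM, with no overlap. Its log2 fold change was 0.19 (SE 0.07; adjusted p = 0.0347 in edgeR, and 0.204 with a replicate block in the fit). The adjusted p was 0.376 and 0.202 without non-silencing replicate 1 or 2, 0.157 without ILF2 shRNA replicate 1 and 0.0544 with no filter on low counts. The alpha and beta subunit genes of the F1 head were at high levels and were not called. ATP5F1A, the alpha subunit, had 1001, 1058, 1029.9 and 1036 CPM, with overlapping groups. ATP5F1B, the catalytic beta subunit, had 934, 952, 986 and 1055 CPM, with separate groups (log2 fold change 0.11; adjusted p = 0.236 in edgeR).

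Among the 3 genes that encode the same c-ring protein of the rotor, ATP5MC3 had 198, 192, 207 and 215 CPM, ATP5MC2 162, 158, 161 and 167 CPM, and ATP5MC1 148, 143, 134 and 147 CPM. Only the groups of ATP5MC3 were separate, and the log2 fold changes were 0.11, 0.03 and -0.05, with edgeR adjusted p from 0.259 to 0.785. ATP5IF1, the inhibitor that blocks reverse rotation of the enzyme, had 79.1, 77.6, 86.6 and 86.7 CPM (log2 fold change 0.15; adjusted p = 0.139 in edgeR). ATP5PF, a peripheral stalk gene, was just outside the threshold with 54.7, 55.8, 63.5 and 62.4 CPM (0.19; adjusted p = 0.0523 in edgeR). In neither gene did the groups overlap. The median of complex V was 0.07, and 0.04 with base composition and gene length corrected for.

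**Figure D2:**
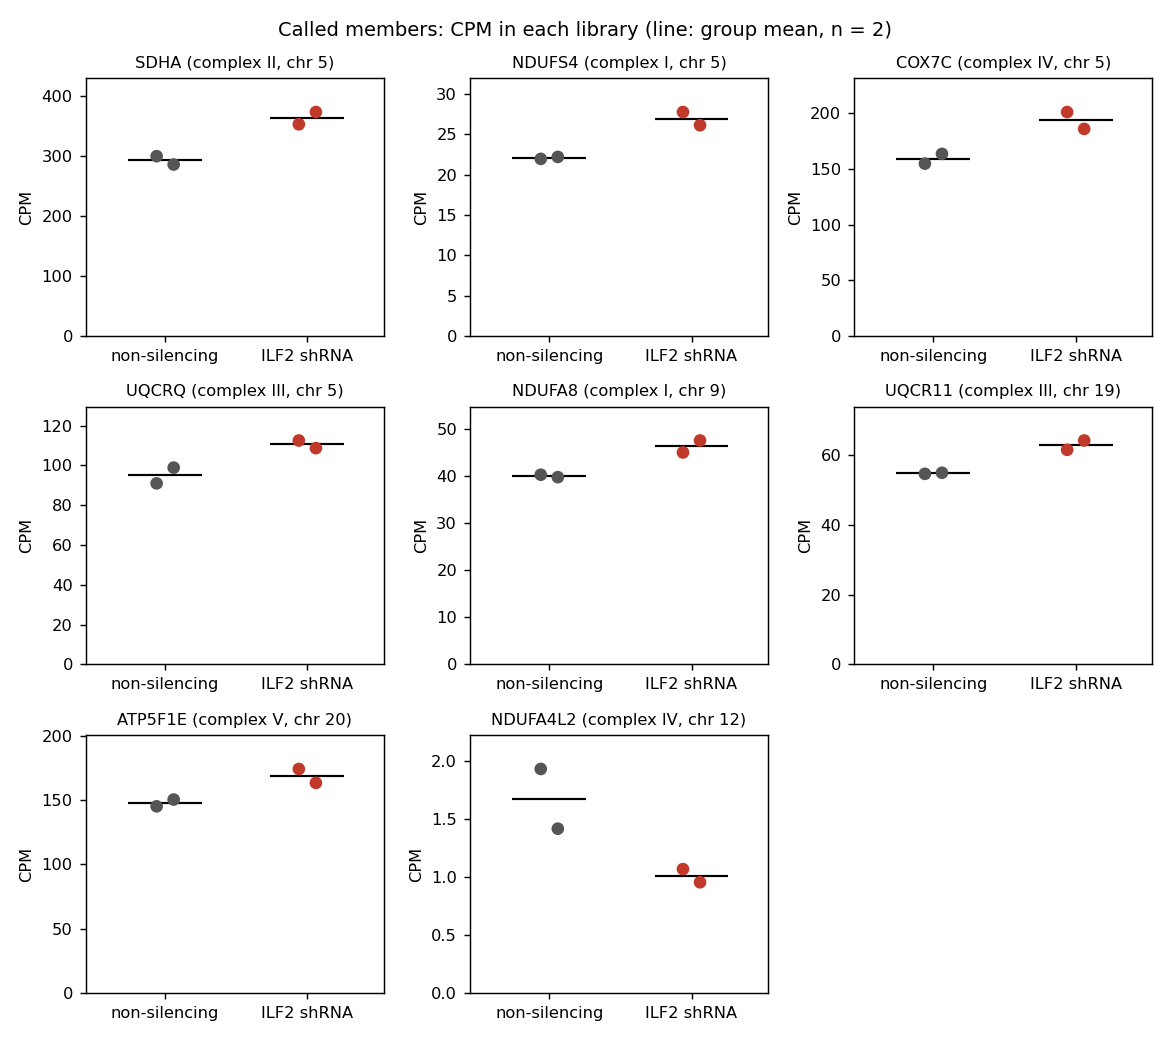
Level in CPM (y axis, from 0) of 8 members called at an adjusted p under 0.05, with 1 point per library and a line at each group mean (n = 2). In all 8 panels the 2 ILF2 shRNA points lie on 1 side of the 2 non-silencing points, above them in 7 and below them for NDUFA4L2.

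Members lay on 22 chromosomes, and chromosome 5 stood out by its calls. It carries 6 members: SDHA, NDUFS6, NDUFS4, COX7C, UQCRQ and NDUFA2. Of these, 4 rose, and all 6 had separate groups with the ILF2 shRNA libraries higher. NDUFA2 had 47.3, 45.1, 50.7 and 52.1 CPM (log2 fold change 0.15; adjusted p = 0.138 in edgeR). The median of the 6 was 0.25. Genes of this chromosome outside the family were also shifted: of 894 tested, 263 were higher and 30 lower (32.8% called), 445 were higher with separate groups (49.8%), and their median was 0.15. Whether 4 of 6 differs from that background was not tested. Dropping either control library left only 1 member of chromosome 5 called. With the 6 genes left out, 4 of the 76 remaining members rose and 1 fell, with a median of 0.05.

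No other chromosome held more than 1 called member, and only some of the others are described here. Chromosome 19 has 10 tested members, ATP5F1D, COX6B1, NDUFA11, NDUFA13, NDUFA3, NDUFA7, NDUFB7, NDUFS7, UQCR11 and UQCRFS1. Here UQCR11 was called and the median was 0.0018, against -0.03 for its other genes. On chromosome 11 the 7 tested members ATP5MG, COX8A, NDUFC2, NDUFS3, NDUFS8, NDUFV1 and SDHD had a median of 0.03 and none was called. Chromosome 12 holds ATP5F1B, ATP5MC2, COX6A1, NDUFA12, NDUFA4L2 and NDUFA9 (median -0.0082, with NDUFA4L2 called). The 6 members of chromosome 2 (ATP5MC3, COX5B, COX7A2L, NDUFA10, NDUFB3 and NDUFS1) had a median of 0.06, the 4 tested on chromosome 16 (COX4I1, NDUFAB1, NDUFB10 and UQCRC2) 0.03 and the 4 tested on chromosome 7 (ATP5MF, NDUFA4, NDUFA5 and NDUFB2) 0.04, with none called.

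Genes near several called members were also examined, in windows of 500 kb on either side chosen after the data were seen. Of all tested genes, 10.2% were higher and 10.1% lower. On chromosome 5, outside the family, the shares were 29.4% and 3.36%. Differences from these shares were not tested. Around SDHA 7 of 19 tested neighbours were higher and 2 lower (median 0.10). Around NDUFS4 it was 2 of 5 higher and 0 lower (median 0.34), and around UQCRQ 5 of 15 higher and 0 lower (0.11). Neighbours of UQCR11, which rose, had 2 of 40 higher and 6 lower (-0.09). Those of NDUFA4L2, which fell, had 3 of 30 higher and 6 lower (-0.08). COX7C had a single tested neighbour, at -0.13, which was not called. Around NDUFA8 1 of 10 was higher and 0 lower (0.10), and around ATP5F1E 1 of 13 higher and 0 lower (0.02).

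**Figure D3:**
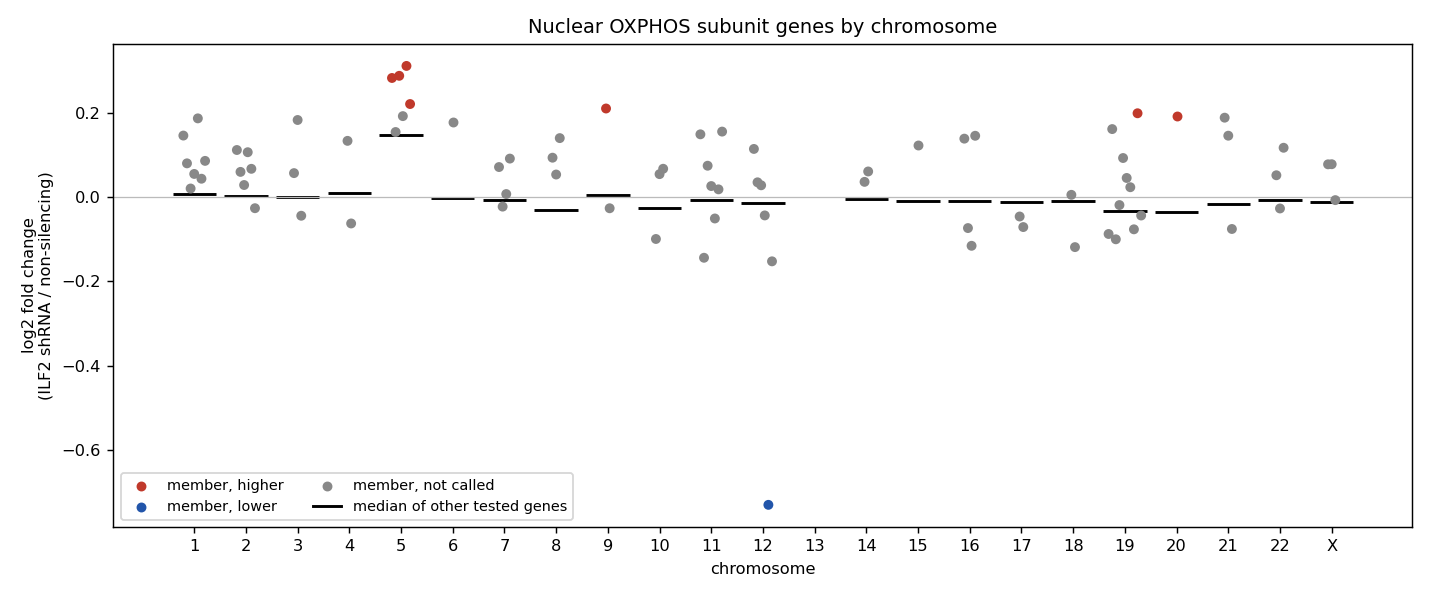
Log2 fold change (y axis) of the tested members reported here by chromosome (x axis), with black bars at the median of the other tested genes of each chromosome that holds a member. The 6 members of chromosome 5 lie between 0.15 and 0.31, above that chromosome's bar at 0.15.

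Levels per length, in FPKM (CPM divided by exon length in kilobases), spanned almost 3 orders of magnitude among the tested members. ATP5F1B was highest with a non-silencing mean of 416 FPKM, followed by COX8A at 284, NDUFS5 at 225, ATP5F1A at 147 and UQCRHL at 142 FPKM. In complex I the extremes were NDUFS5 and NDUFA7 (0.611 FPKM), in complex II SDHD (49.8 FPKM) and SDHC (26.0 FPKM), and in complex III UQCRHL and UQCRB (16.9 FPKM). Complex IV ran from COX8A down to NDUFA4L2 (0.596 FPKM) and complex V from ATP5F1B down to ATP5MGL (0.616 FPKM). ATP5MGL, an intronless relative of ATP5MG, had 0.499, 0.486, 0.439 and 0.578 CPM. The exon length joins all annotated transcripts of a gene, so a gene with long rare exons is listed low.

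**Figure D4:**
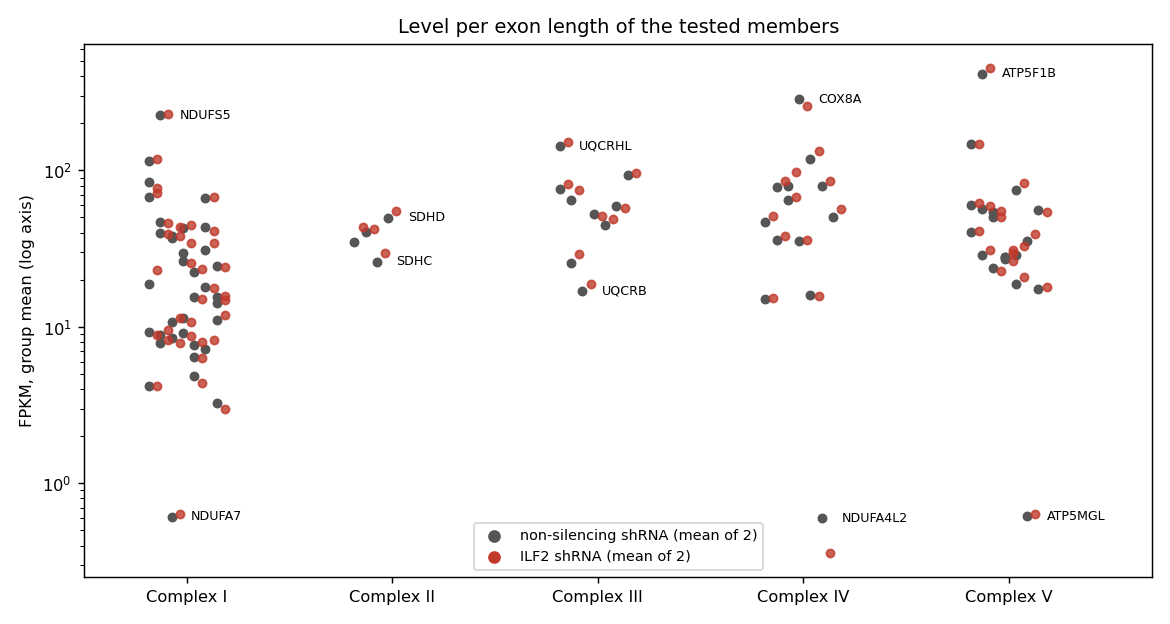
Level per exon length (y axis, FPKM on a log axis) of the tested members reported here by complex (x axis), with the non-silencing mean in grey and the ILF2 shRNA mean in red (2 libraries each). Only NDUFA7, NDUFA4L2 and ATP5MGL lie below 1 FPKM, and for most genes the 2 points of a pair are at nearly the same height.

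Subunit genes have many processed pseudogenes, and their reads bear on these levels. For 50 members the annotation lists 187 pseudogenes named after them, which together had 63142 fragments, 2.37% of the members' own. Of the 36 tested, 2 rose and 0 fell, beside 10.2% higher and 10.1% lower among all tested genes. Both are copies of members that rose. COX7CP1 on chromosome 13 had 7.65, 7.59, 9.32 and 10.3 CPM (log2 fold change 0.36; adjusted p = 0.00516 in edgeR), and ATP5F1EP2, also on chromosome 13, had 13.6, 13.02, 16.5 and 17.1 CPM (0.34; adjusted p = 0.00300 in edgeR). Dropping non-silencing replicate 2 ended both calls, and dropping ILF2 shRNA replicate 2 also ended that of COX7CP1. The SDHA copies SDHAP1, SDHAP3 and SDHAP4 had 5.51 to 9.30 CPM and were not called. Fragments from a parent gene and from a near-identical copy cannot be told apart in these counts. Adding pseudogene fragments to their parents, an alternative chosen after the data were seen, again gave 8 higher and 1 lower.

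For 2 genes the copy took more fragments than the gene. NDUFV2P1 on chromosome 19 had a non-silencing mean of 58.8 CPM, against 8.78 CPM for NDUFV2, the iron-sulfur core subunit gene. COX6A1P2 on chromosome 6 had 61.9 CPM, against 47.3 CPM for COX6A1. The listed levels of NDUFV2 and COX6A1 are therefore uncertain. UQCRH and its near-identical intronless relative UQCRHL are both members, and at 127, 135, 138 and 132 CPM and 75.5, 71.2, 78.6 and 77.2 CPM their split is uncertain in the same way. Overlapping annotation is a further limit: 26 members share exon bases with another gene on the same strand, 17 of them 10% or more of their length. Among tested members the shares were highest for NDUFB8 at 48.5%, NDUFA13 at 35.9% and NDUFB5 at 35.2%. NDUFA7 (29.0% shared) had 1.13, 0.791, 1.10 and 0.896 CPM. The 8 untested members include the readthrough genes NDUFC2-KCTD14, whose exon bases are all shared and which had 0 fragments, and ATP5MF-PTCD1 (88.3% shared) with 5, 1, 1 and 0 fragments.

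Differences between replicates were related to base composition. Across the 79 members of at least 5 CPM, the log2 ratio of non-silencing replicate 1 to 2 had a Spearman correlation of 0.47 with exon GC content, and that of ILF2 shRNA replicate 1 to 2 one of -0.39. For the log2 fold change between groups it was -0.17. These are correlations over genes of the same libraries, given as a description. The 6 members with 60% GC or more had a median log2 ratio of 0.14 between the non-silencing replicates, but of -0.0048 between the ILF2 shRNA replicates (range -0.18 to 0.26). NDUFB7 had 67.2, 55.5, 58.6 and 66.1 CPM, higher in non-silencing replicate 1 and in ILF2 shRNA replicate 2. ATP5F1D, at 68.4, 56.9, 59.7 and 58.2 CPM, differed in this way between the non-silencing replicates only. For both genes the spread within a group was as large as any difference between groups.

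Other genes of the pathway were described from lists drawn up with earlier results of these data known. The 13 subunits encoded in mitochondrial DNA contribute to complexes I, III, IV and V, and 7 of them rose and 0 fell, beside 20.3% of all tested genes called (median log2 fold change 0.28). MT-CO2, which encodes the cytochrome c binding subunit of complex IV, had 431, 388, 619 and 564 CPM, a log2 fold change of 0.53 (adjusted p = 1.2e-08 in edgeR). MT-CO1 had 1083, 1002, 1359 and 1233 CPM (0.31), and MT-CO3 783, 787, 1025 and 907 CPM (0.30). MT-ND1 was at 15.1, 13.3, 20.7 and 15.9 CPM (0.37). These groups did not overlap. ILF2 shRNA replicate 1 was the highest library in each of the 4. Without it 4 were called and the median was 0.09, whereas without ILF2 shRNA replicate 2 the count was 12 and the median was 0.45. Without non-silencing replicate 2 only MT-CO2 was called. Once base composition and gene length were corrected for, 3 were called, MT-CO1, MT-CO2 and MT-CO3. The complex IV members encoded in the nucleus had a median of 0.08 (0.05 when either non-silencing replicate 1 or ILF2 shRNA replicate 2 was dropped). Whether the nuclear and mitochondrial genes differ was not tested. All genes of mitochondrial DNA together took 0.351%, 0.307%, 0.516% and 0.463% of fragments. Fragments shared with nuclear copies of these genes were not assessed, so their levels are uncertain.

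Of 54 assembly factors, which help build the complexes without remaining in them, 3 rose and 2 fell, beside 20.3% of all tested genes called. Their median of 0.02 became 0.01 without ILF2 shRNA replicate 1, 0.04 without its replicate 2 and 0.01 and 0.04 without non-silencing replicate 1 or 2. With base composition and gene length corrected for, 9 rose and 6 fell (median 0.0072). ATPAF2, a chaperone for the F1 alpha subunit, had 14.8, 14.9, 18.4 and 21.3 CPM (log2 fold change 0.42; adjusted p = 0.000231 in edgeR). COX15, needed to make the heme A of complex IV, had 77.5, 83.3, 95.6 and 101 CPM (0.29; adjusted p = 0.00158 in edgeR; 0.154 without non-silencing replicate 1). The rise of SDHAF3 was 0.26 (adjusted p = 0.0267 in edgeR), and COX19 fell by 0.30 (adjusted p = 0.0286 in edgeR). Both of these calls were lost without either non-silencing library and in DESeq2. NDUFAF5, a complex I assembly enzyme, had 8.26, 8.40, 5.35 and 4.96 CPM, the largest fall of the list at -0.69 (adjusted p = 9.7e-07 in edgeR). It kept its call in every setting tried, as did ATPAF2. Their subunit partners ATP5F1A and NDUFS7 were not called.

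Of 16 genes for regulators of respiratory gene transcription, 0 rose and 3 fell, beside 20.3% of all tested genes called in either direction. The median was -0.06, and -0.04 with base composition and gene length corrected for. TFAM, which packages mitochondrial DNA and helps start its transcription, had 46.8, 49.3, 41.2 and 36.7 CPM (log2 fold change -0.30; adjusted p = 0.00200 in edgeR). NRF1 had 23.1, 22.6, 18.2 and 19.1 CPM (-0.30; adjusted p = 0.00636 in edgeR), and the coregulator gene HCFC1 had 282, 252, 219.7 and 229 CPM (-0.25; adjusted p = 0.00479 in edgeR). In all 3 the ILF2 shRNA libraries were below both controls. With a replicate block in the fit, 1 of the 16 was called lower, which was TFAM. Each of the 3 calls was lost when 1 control was left out: that of TFAM without the second, that of HCFC1 without the first, and that of NRF1 without either one. TFAM was also lost when ILF2 shRNA replicate 2 was left out (adjusted p = 0.054).

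Pyruvate dehydrogenase and citric acid cycle enzymes, which supply the chain with NADH and succinate, gave 2 higher and 0 lower of 18, beside 20.3% of all tested genes called. Their median was 0.06, with 0.12 and 0.02 when ILF2 shRNA replicate 1 or 2 was left out. The 2 were SUCLG1 (84.6, 85.8, 103 and 100.5 CPM; log2 fold change 0.26; adjusted p = 0.00389 in edgeR) and IDH3A (86.2, 86.5, 102 and 103 CPM; 0.25; adjusted p = 0.00525 in edgeR). Of 7 carriers and channels for adenine nucleotides and phosphate, 1 rose and none fell, beside 20.3% of all tested genes called. It was SLC25A4 (44.9, 48.5, 52.8 and 57.0 CPM; log2 fold change 0.24; adjusted p = 0.0157 in edgeR). None of these 3 was called without non-silencing replicate 1, nor without replicate 2. CYCS encodes cytochrome c, and CYC1 encodes cytochrome c1, a complex III subunit that the symbol rule left out. The complex III counts, sums and median therefore lack CYC1. CYCS (208, 218, 235 and 206 CPM) and CYC1 (128, 122, 113 and 130.004 CPM) overlapped between groups and were not called.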

How the data were processed

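RNA-seq of 2 non-silencing and 2 ILF2 shRNA libraries was analysed, grouped by the sample titles. The deposited files hold unnormalised fragment counts for each gene, which the authors made with featureCounts (Subread 1.4.6-p2; paired fragments, strand setting 2, exons summed by gene), per the file headers, on GRCh37. STAR 2.3.0 and SAMtools 0.1.19 are listed in the submitters' processing notes, whereas the design text names Tophat2. The headers record no option for fragments that map to several places or genes, so the listed counts of genes with near-identical copies or overlapping exons may be low. The gene's exon length is also the authors' value, per the file headers.

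Symbols came from a GENCODE annotation of GRCh37 through Ensembl IDs. Counts were tested in edgeR 4.0.16 (R 4.3.3) with TMM factors (0.970 to 1.02), filterByExpr (minimum count 10), robust dispersions and the two-sided quasi-likelihood test on 19142 genes, with Benjamini-Hochberg adjustment over them. With 2 libraries per group there are 2 residual degrees of freedom, and the biological coefficient of variation was 5.38%. The test also draws on the spread of all tested genes, so standard errors of single genes are partly shared. CPM uses TMM-adjusted library sizes, and FPKM divides it by exon length.

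Members and lists were chosen with earlier results of these data known. A called member is counted in the totals but not reported here by name. Named were ILF2, called members, level extremes per complex, isoform pairs, untested members, members of most chromosomes with 4 or more tested, and up to 4 called genes per other list. Genes outside this rule (those just outside the threshold, SDHB, core subunit genes, head and rotor genes, NDUFB8, NDUFA13, NDUFB7, ATP5F1D and the pseudogenes) were chosen after their values were seen. Alternatives were DESeq2 1.42.0, limma-voom (limma 3.58.1), other size factors and filters, mitochondrial and small RNA genes left out, a GC and exon length offset (mgcv 1.9.3), a replicate block and each library left out. Every member was tested within this single table, and no batch is given in the labels. The replicate numbers were checked for pairing: deviations of replicate 1 from the group means correlated at -0.02 between groups over 19142 genes, so the numbers were taken not to pair libraries.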

Additional observations from a re-analysis of the deposited data

How the results depend on the processing

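The main analysis called 8 members higher and 1 lower, with a median log2 fold change of 0.058. Both counts stayed within 1.5 times of these with DESeq2 size factors, upper-quartile factors, limma-voom, a minimum of 1 CPM in 2 libraries, totals without mitochondrial and small RNA genes, and pseudogene fragments added to the parent gene (added after the data were seen). DESeq2 called 9 higher and 0 lower, beside 8.61% and 7.98% of the genes it tested, and no filter on low counts gave 5 higher, beside 5.47%. The correction for GC content and exon length gave 22 higher and 5 lower with a median of 0.030. With members of chromosome 5 left out, 4 were higher. Leaving out each library in turn gave 1 to 11 higher, 0 to 1 lower and medians of 0.052 to 0.074.

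A replicate block gave 3 higher, SDHA and COX7C among them, beside 6.74% of all tested genes. The replicate block with the GC and exon length correction gave 22 higher and 5 lower, beside 15.2% and 15.6%, with a median of 0.032. With 2 libraries per group the numbers carry no stated pairing.

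Over 15 alternatives, 1156 of 1229 values of single members kept their side of the threshold, 26 lost a call and 47 gained one. No member changed sign where it was called in either fit, but 54 uncalled values, from 31 members, had the other sign than in the main analysis. With 1 library left out, 1 residual degree of freedom remains and the lone library is assumed to vary like the others. Rises of 0.19 to 0.31 stand against standard errors of 0.07 to 0.08 in the main analysis, with 2 libraries per group. The causes of the moves between settings were not tested.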
